A study of Mus musculus with 10 samples.

Results

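Interneurons of the cerebral cortex are born in the ventral forebrain of the embryo, and transcription factors that set their lineage stay on in the adult cell. The genes followed here were 10 such lineage genes, chosen by symbol: Dlx1, Dlx2, Dlx5, Dlx6os1, Lhx6, Adarb2, Prox1, Nr2f2, Maf and Sp8. All 10 were found, among 30406 gene identifiers shared by the 10 libraries. They were read as raw counts of UMIs (molecular tags that let each captured RNA molecule be counted only 1 time) in single cells of the medial prefrontal cortex. The animals were male C57BL/6N mice over 2 months old, ranked by the tube test, in which the mouse that backs out of a narrow tube loses. There were 5 libraries from rank 1 (dominant) and 5 from rank 4 (subordinate) mice, each pooling 2 to 3 animals, so the library was the replicate. No animal carried a transgene or received a drug, as far as the labels say, and tissue was taken 1 day after the last test and digested with papain at 37 °C for 60 min. The question put to the genes was where they were counted and whether rank went with their level.

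Of 64937 deposited barcodes 46285 passed the filters on genes, mitochondrial UMIs and doublets, between 1445 and 12647 per library, with 4442750 to 29278466 UMIs per library in all. Clusters named from marker genes that included none of the 10 members gave 2044 inhibitory neurons (42 to 698 per library). These fell into 449 Sst, 391 Pvalb, 388 Vip, 283 Lamp5 and 115 Sncg cells, each name meaning cells that resemble the type, and 418 cells that stayed unnamed. Libraries shared few barcode sequences, 268 among the kept cells, and a pair of libraries shared at most 0.879% of the smaller one's cells. The headers name software version 3.1.0 in replicates 1 to 3 and version 4.0.0 in replicates 4 and 5, for either rank, and 5 of the 10 members differed between these 2 sets of libraries in inhibitory neurons, where 37.4% of all genes did.

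As background, the medial ganglionic eminence gives rise to Sst and Pvalb interneurons (MGE-type below) and the caudal ganglionic eminence to Vip, Sncg and most Lamp5 interneurons (CGE-type below, for Vip and Lamp5 cells). Dlx1, Dlx2 and Dlx5 are homeodomain factors that switch on the GABAergic programme in both sources. Lhx6, a LIM-homeodomain factor, and Maf, a basic leucine zipper factor, act in the medial lineage, while Prox1, Nr2f2 (COUP-TFII, an orphan nuclear receptor) and Sp8 (a zinc finger factor) mark the caudal lineage. Dlx6os1 (Evf2) is a noncoding RNA of the Dlx5/Dlx6 locus, and Adarb2 encodes a double-stranded RNA-binding relative of the RNA-editing enzymes, so these 2 are lineage markers and not transcription factors.

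The positions are those of GENCODE M21 on GRCm38 (mm10). Dlx1 (chr2:71528113-71533981, plus strand) and Dlx2 (chr2:71543408-71546754, minus strand) lie next to each other, 9.427 kb apart and pointing toward each other. Dlx5 (chr6:6877805-6882085, minus strand) has Dlx6 as its partner at a distance of 9.237 kb, and Dlx6os1 (chr6:6820189-6871592, minus strand) runs across Dlx6 on the opposite strand. Lhx6 spans chr2:36081953-36105408 on the minus strand, and Adarb2, the longest member at 565.9 kb, spans chr13:8202866-8768747 on the plus strand. Prox1 lies at chr1:190118035-190170714, Nr2f2 at chr7:70351944-70366735 and Maf at chr8:115682942-115707794, all on the minus strand, and Sp8 lies at chr12:118846329-118852576 on the plus strand. Opposite-strand genes also overlap Dlx1 (Dlx1as), Prox1 (Prox1os), Nr2f2 (B130024G19Rik), Maf (Gm15655) and Adarb2 (Gm10357). The sources used here name Cell Ranger and give no strand setting. Whether reads of these members and of their opposite-strand neighbours were told apart was not checked. Same-strand genes overlap Dlx6os1 (Gm44094 and Dlx6os2), Lhx6 (Gm27953) and Adarb2 (Gm48259, Gm48261 and Gm48262).

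Since the Dlx proteins and Lhx6 are homeodomain factors, the letters TAATTA, the core that many homeodomains bind and its own reverse complement, were searched in the RefSeq promoters (GRCm38.p6, 250 bases before to 50 after a start). Of the members 8 had at least 1 entry, with 14 windows in all, and 3 members held the motif: Dlx6os1, Sp8 and Adarb2. By window, 4 of the 14 held it, and over all promoters 1738 of 32851 windows did (5.29%). A match is a description of letters and not of binding. The 150 bases before the start are shown for a gene counted in all interneuron types (Dlx2) and for the genes that divided the lineages (Lhx6 and Adarb2), with Dlx6os1, which held the motif at 2 places in the window shown and at 1 in its other window. Capitals mark TAATTA, and each sequence reads in the direction of its gene.
Dlx6os1, chr6:6869534-6869683, minus strand, overlapping 1 annotated exon: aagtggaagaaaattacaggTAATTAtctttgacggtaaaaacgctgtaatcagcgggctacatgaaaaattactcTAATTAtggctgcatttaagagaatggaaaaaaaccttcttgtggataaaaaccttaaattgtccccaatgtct
Adarb2, chr13:8202716-8202865, plus strand, no annotated exon: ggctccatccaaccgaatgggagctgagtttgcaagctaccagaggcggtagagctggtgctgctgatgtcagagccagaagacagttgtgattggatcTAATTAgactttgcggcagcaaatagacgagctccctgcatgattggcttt
Dlx2, chr2:71546755-71546904, minus strand, no annotated exon: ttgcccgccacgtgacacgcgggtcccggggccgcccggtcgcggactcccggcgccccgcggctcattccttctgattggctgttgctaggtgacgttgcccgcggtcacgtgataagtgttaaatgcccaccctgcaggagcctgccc
Lhx6, chr2:36105409-36105558, minus strand, no annotated exon: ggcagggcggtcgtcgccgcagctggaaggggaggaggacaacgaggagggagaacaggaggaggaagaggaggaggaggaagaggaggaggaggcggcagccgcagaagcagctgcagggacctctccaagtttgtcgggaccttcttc

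Lhx6 and Adarb2 divided Sst and Pvalb cells from Vip and Lamp5 cells with no overlap between libraries. The unnamed clusters, described below, are not part of this comparison. Levels are given in CPM (UMIs of the gene per 1000000 UMIs), from the counts summed over the cells of a type in a library, and each error is the SD over 10 libraries. In Sst cells Lhx6 stood at 161 ± 76.8 (SD, n = 10), lowest 84.2, median 141 and highest 324 CPM, and in Pvalb cells at 147 ± 56.2 (SD, n = 10), between 75.8 and 241 CPM. In Vip cells it was at 0 in 8 of 10 libraries and at most 5.69 CPM, and in Lamp5 cells at 0 in 8 and at most 22.3 CPM. The Sst and Pvalb levels did not differ beyond their spread. Adarb2 had the reverse order, with 1115 ± 329 (SD, n = 10) CPM in Vip cells (632 to 1489), 392 ± 125 in Lamp5 cells (229 to 618), at most 7.40 CPM in Sst and at most 4.36 CPM in Pvalb cells. All 10 libraries held more Adarb2 in Vip than in Lamp5 cells, and the 2 ranges did not overlap.

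**Figure D1:**
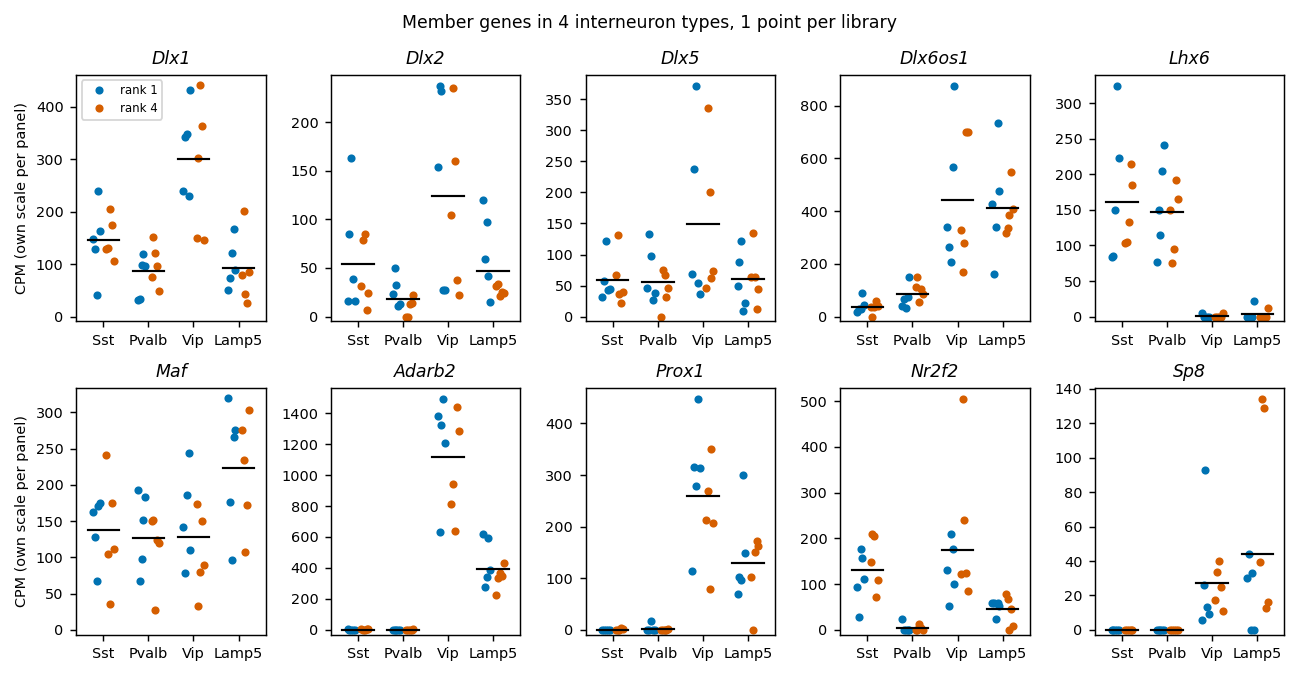
CPM of the 10 genes (y axis, own scale in each panel) in Sst, Pvalb, Vip and Lamp5 cells (x axis), 1 point per library coloured by rank, with a line at the mean of the 10 libraries. Lhx6 is high in Sst and Pvalb cells (84.2 to 324 and 75.8 to 241 CPM) and near 0 in Vip and Lamp5 cells, Adarb2, Prox1 and Sp8 have the opposite order, and the ranks lie intermingled.

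Few cells held UMIs of both genes. Each inhibitory neuron was thinned to 1000 UMIs, which left out 133 shallower cells and kept 1911. Of these, 176 held an Lhx6 UMI (9.21%, exact binomial 95% interval 7.95 to 10.6%) and 401 an Adarb2 UMI (exact binomial 95% interval 19.2 to 22.9%), and 0 held both. At this depth, where many cells with the RNA give no UMI, a count of 0 in 176 cells allows a share of cells with a UMI of up to 1.70% by the rule of 3 counts and up to 2.07% by the exact binomial 95% interval, while 23.1% of the cells without Lhx6 held Adarb2. Without thinning, 9 of 466 Lhx6 cells also held Adarb2 (1.93%, 0.887 to 3.63%), against 41.3% of the others. At 2000 UMIs per cell it was 2 of 255 (0.784%, 0.0951 to 2.80%), against 31.1%. Doublets had been taken out first, which removes some cells with both genes, and intervals and limits cover counting error alone. Excitatory neurons, which should lack the genes, held an Lhx6 UMI in 0.205% and an Adarb2 UMI in 0.575% of 14599 cells thinned in the same way (median before thinning 2729 UMIs, 3075 in inhibitory neurons). The 15.5% of 446 Sst and 16.3% of 386 Pvalb cells with Lhx6 lay far above that level, and 0 of 347 Vip cells held Lhx6.

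Of the other caudal genes Prox1 and Sp8 followed Adarb2. Prox1 was at 259 ± 110 (SD, n = 10) CPM in Vip cells, lowest 80.1 and highest 447, and at 131 ± 78.5 in Lamp5 cells, with 1 library at 0. It was at 0 in 8 of 10 libraries in Sst and in Pvalb cells, with a highest value of 16.4 CPM. After thinning, 57.5% of the 120 inhibitory neurons with a Prox1 UMI also held Adarb2, and 0 of those with Lhx6 held Prox1. Sp8 was the rarest member, with 89 UMIs in all inhibitory neurons. Not 1 of its UMIs fell in Sst or Pvalb cells, while its mean was 27.5 ± 25.5 CPM in Vip, 43.8 ± 48.6 in Lamp5 and 98.2 ± 112 in Sncg cells (SD, n = 10). Those 3 Sp8 means did not differ beyond the spread of the libraries. In Sncg cells (2 to 41 per library) Adarb2 reached 1275 ± 473 CPM, and the Lhx6 level there was at most 12.5 CPM.

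Nr2f2 and Maf did not keep to a lineage. Nr2f2 was at 131 ± 58.5 CPM in Sst cells and 174 ± 129 in Vip cells (SD, n = 10), 2 ranges that overlapped, at 45.2 ± 26.0 in Lamp5 cells, and at 4.01 ± 7.94 in Pvalb cells, where 7 libraries were at 0. Every library had more Nr2f2 in Sst than in Pvalb cells. Within the Sst cells it was uneven: summed over libraries, a cluster of 180 cells led by Igfbp5 and Unc13c held 276 CPM, and a cluster of 246 cells led by Pdyn and Crhbp held 32.8 CPM. Maf had the opposite order in these 2 Sst clusters, 47.0 in the first and 220 CPM in the second. Nr2f2 was itself among the 10 leading genes of the first cluster, although it was left out of the clustering. The smallest Sst cluster, of 23 cells, led by Npy, Crhbp and Nos1, held 20.6 CPM of Nr2f2 and 144 CPM of Maf, from 2 and 14 UMIs.

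Maf, a factor of the medial lineage, was highest among the 4 types in Lamp5 cells, at 223 ± 79.7 (SD, n = 10), lowest 97.0, median 250 and highest 319 CPM. It stood at 137 ± 60.0 in Sst, 126 ± 51.3 in Pvalb and 129 ± 62.2 CPM in Vip cells, 3 means that did not differ beyond their spread. Against each of the other 3 types taken singly, Lamp5 cells held more Maf in 9 of 10 libraries, yet the ranges over libraries overlapped. Lamp5 cells with a Maf UMI made up 25.5% of 275 thinned cells, against 11.2% of Sst, 11.7% of Pvalb and 13.3% of Vip cells and 0.678% of excitatory neurons.

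Dlx1, Dlx2, Dlx5 and Dlx6os1 were counted in all 4 types, and Dlx1, Dlx2 and Dlx5 leaned to Vip cells by their means. Dlx1 was at 299 ± 106 CPM in Vip, 146 ± 54.5 in Sst, 93.4 ± 55.2 in Lamp5 and 86.9 ± 39.9 in Pvalb cells (SD, n = 10). Each of the 10 libraries had more Dlx1 in Vip than in Pvalb and in Lamp5 cells, and 9 of 10 had more than in Sst cells. Dlx2 was at 124 ± 91.8 in Vip and 17.9 ± 15.1 CPM in Pvalb cells, and higher in Vip in all 10 libraries. In replicates 4 and 5 alone, it was at 22.4 to 37.5 CPM in Vip and at 7.29 to 38.4 CPM in Sst cells. Dlx5 was at 148 ± 128 in Vip cells and between 56.4 and 60.9 CPM on average in the other 3, which were alike within their spread. Dlx6os1 was at 443 ± 246 CPM in Vip and 413 ± 153 in Lamp5 cells, and its lowest libraries there (168 and 162 CPM) lay above the highest Sst (89.5) and Pvalb (152) libraries. Vip cells held more of it than Lamp5 cells in 5 libraries and less in 5. The ranges over libraries of this noncoding RNA were separate between each caudal and each medial type, and those of Dlx1, Dlx2 and Dlx5 overlapped in all pairs of types.

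Of the 11 clusters of inhibitory neurons, 3 stayed unnamed. The largest, 204 cells led by Tac1, Slit2, Crh and Th, had the medial pattern, with 128 CPM of Lhx6 and 4.22 CPM of Adarb2, and with 39.4 CPM of Maf. The second, 169 cells, held Lhx6 (124 CPM) and Adarb2 (154 CPM) together, and the third, 45 cells with the excitatory gene Slc17a7 among its leading genes, held 48.6 and 194 CPM. Whether these last 2 mix cells of several types was not tested, and they entered no type.

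Outside the interneurons 4 members had homes of their own. Inhibitory neurons were 4.42% of the kept cells and held 80.8% of all Dlx6os1, 77.5% of Lhx6, 73.6% of Dlx2, 73.3% of Dlx5, 69.8% of Dlx1, 68.2% of Adarb2 and 58.6% of Sp8 UMIs. Their share was 33.8% for Prox1, 31.6% for Maf and 27.0% for Nr2f2. Microglia, the resident phagocytes of the brain, held 37.0% of the Maf UMIs, at 167 ± 72.6 CPM (SD, n = 10; 65.1 to 258), and perivascular macrophages, of which there were 114 cells, held 660 CPM when all libraries were summed. Nr2f2 was at 206 ± 30.1 CPM in pericytes (171 to 250 over the 10 libraries), the contractile cells of capillaries. Summed over libraries it reached 229 CPM in smooth muscle cells, 250 CPM in 114 fibroblasts and 29.9 CPM in endothelial cells. Prox1 was at 91.0 ± 57.0 CPM in oligodendrocytes, the myelin-forming glia, which held 27.0% of its UMIs, and at 25.4 ± 8.73 CPM in their precursors. Adarb2 was at 90.8 ± 57.8 CPM in oligodendrocyte precursors (33.7 to 209), with 16.9% of its UMIs. After thinning, 16.8% of 2565 microglia held a Maf UMI, against 1.35% of 7643 astrocytes (exact binomial 95% intervals 15.4 to 18.3% and 1.10 to 1.63%, median before thinning 1583 and 1655 UMIs). The part of free RNA in these shares was not tested. Summed over libraries, excitatory neurons held every member at no more than 5.63 CPM.

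**Figure D2:**
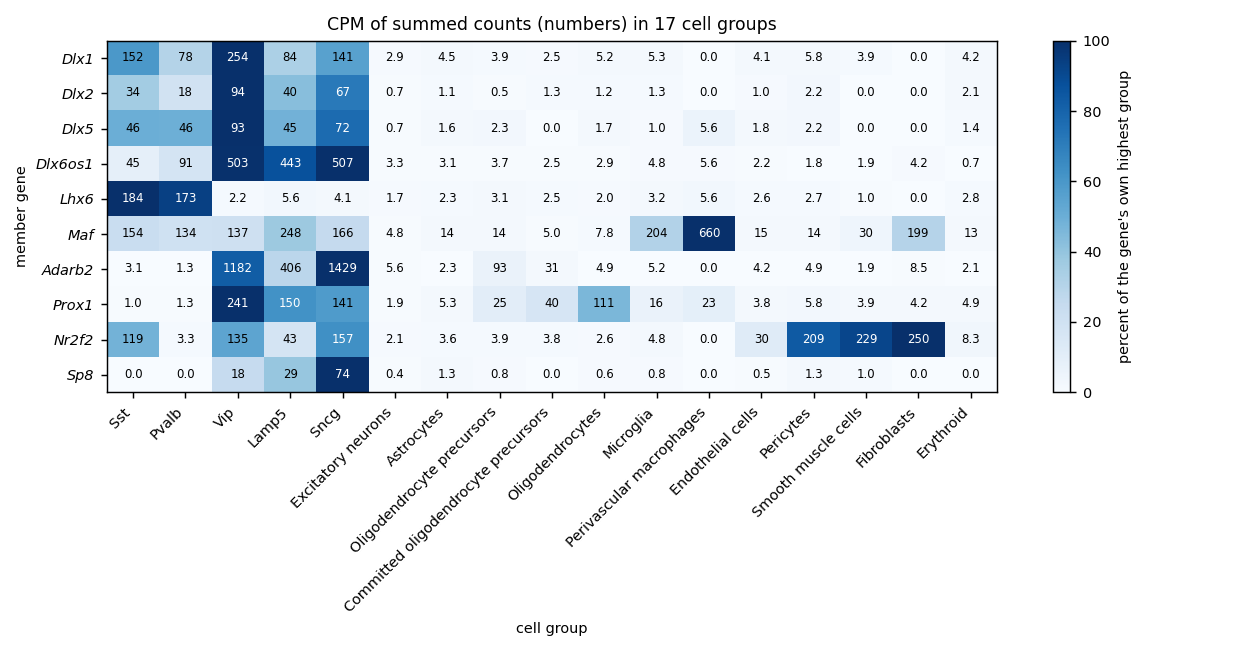
Numbers give the CPM of each gene (rows) in 17 cell groups (columns), counts summed over all 10 libraries; colour gives the value as a percent of the gene's own highest group, so colours compare groups and not genes. Lhx6 is dark in Sst and Pvalb cells, while Maf is darkest in perivascular macrophages (660 CPM) and Nr2f2 in fibroblasts (250 CPM).

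The genes whose pattern over the 17 cell groups was most like each member were found by Pearson's r of log2(mean CPM + 10) among 13754 genes. The groups come from the same libraries, so r describes likeness and carries no test. Dlx1, Dlx2 and Dlx5 found each other, with r of 0.989 for Dlx1 and Dlx5, 0.983 for Dlx1 and Dlx2 and 0.977 for Dlx2 and Dlx5. Next to Dlx5 after Dlx1 came Ankrd55 (0.983). Dlx6os1 was nearest to Dlx1as (0.982), the antisense transcript of the other Dlx locus, and to Zmat4 (0.969). Lhx6 was nearest to Moxd1 (0.987) and Klhl14 (0.980), Adarb2 to Krt1 (0.916) and Tac2 (0.913), and Sp8 to Tnfaip8l3 (0.978) and Teddm3 (0.930). Prox1 was nearest to its own overlapping antisense gene Prox1os (0.934) and then to Adarb2 (0.849). Nr2f2, with Ccdc82 (0.858) and Eva1c (0.828), and Maf, with Fam46a (0.868) and Crlf2 (0.852), had looser matches.

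No member passed the test for a change with rank. In all inhibitory neurons, the summed counts of the 5 libraries per rank were compared with edgeR's quasi-likelihood test with software version as covariate and Benjamini-Hochberg adjustment over all genes and cell classes, and a gene was called at an adjusted p under 0.05. All 10 members passed the filter on low counts and 0 were called, where 0% of the 8951 genes tested were called. At an unadjusted p under 0.05 there were 226 genes (2.52%) and again 0 members, while DESeq2 called 0 genes and had 145 at an unadjusted p under 0.05. The median fold of the members was 0.17 on the log2 scale (positive means higher in rank 1), and the median of all genes was 0.01. Of the members 8 of 10 were above 0, and of all genes 51.1% were. In a simulation of this comparison with 8721 genes fitted the test found 52.7% of genes changed 2-fold and 100% of genes changed 4-fold, with 11 false calls. The simulated counts held no effect of software version or replicate number. Their p was adjusted over this class alone and not over all classes, so these rates may not hold for the real comparison.

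Dlx2 had the widest of these differences. In inhibitory neurons of the rank 1 libraries, in order of replicate number, it had a CPM of 69.0, 102, 123, 22.3 and 17.1, and of the rank 4 libraries a CPM of 53.2, 99.6, 52.4, 16.9 and 19.6. The ranks overlapped, and in both of them replicates 4 and 5 were the lowest. The log2 fold was 0.42 (SE 0.24, unadjusted p = 0.0946, adjusted p = 1 by edgeR). Adarb2 was at 600, 257, 415, 312 and 281 CPM in rank 1 and 364, 390, 133, 222 and 313 CPM in rank 4, overlapping again, with a log2 fold of 0.41 (SE 0.29). Lhx6 was at 48.2, 56.2, 72.3, 166 and 152 CPM in rank 1 and 47.4, 41.5, 80.3, 131 and 108 CPM in rank 4, with a log2 fold of 0.25 (SE 0.20). Within replicates 1 to 3 the log2 folds were 0.60 for Dlx2, 0.58 for Adarb2 and 0.02 for Lhx6, and within replicates 4 and 5 they were 0.08, 0.14 and 0.43, each of them not called. The remaining 7 folds lay between -0.08 for Nr2f2 (SE 0.31) and 0.21 for Prox1 (SE 0.27). With the replicate number as a block 10 of 8951 genes were called (0.112%), 0 of them members. In that blocked fit 7.62% of genes had an unadjusted p under 0.05, and 1 member did, Adarb2 (log2 fold 0.43, SE 0.17, adjusted p = 0.349 by edgeR).

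**Figure D3:**
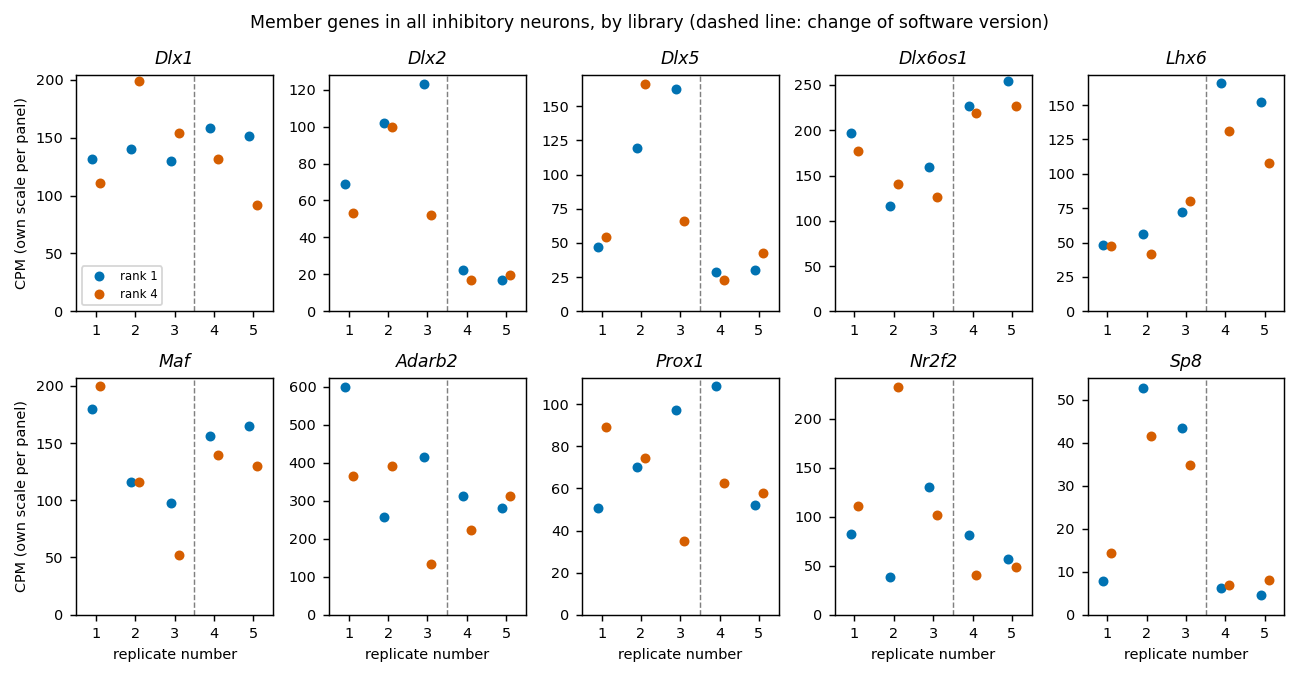
CPM of the 10 genes in all inhibitory neurons of each library (y axis, own scale in each panel) against replicate number (x axis, which has no order in time), coloured by rank. The dashed line divides the libraries of software version 3.1.0 from those of 4.0.0: Dlx2 lies between 52.4 and 123 CPM on the left and between 16.9 and 22.3 CPM on the right, and Lhx6 is higher on the right.

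Within single types the counts allowed fewer tests. Libraries with at least 20 cells of a type entered, and at least 3 per rank were needed, which left Sst (4 against 4) and Vip (3 against 3), and, in fits chosen after seeing the data, MGE-type (Sst with Pvalb) and CGE-type (Vip with Lamp5) sums of 5 against 4 libraries. Of the members 4 passed the filter in Sst, 6 in Vip, 6 in MGE-type and 8 in CGE-type cells, and 0 were called in any. The background was 0% in Sst, 0.223% in Vip, 0% in MGE-type and 0% in CGE-type cells by edgeR, and with the replicate block, where again 0 members were called, it was 0.207%, 0.318%, 0.0472% and 0.118%. Dlx1 had an unadjusted p under 0.05 in the blocked fits of Vip cells (log2 fold 0.66, adjusted p = 0.570 by edgeR) and of CGE-type cells (0.55, adjusted p = 0.591), where 7.96% and 5.71% of genes did. At an unadjusted p under 0.05 there were 4.44% of genes and 0 members in Sst, 2.58% and 0 in MGE-type and 2.08% and 0 in CGE-type cells, and in Vip cells 7.51% of genes and 1 member. That member was Dlx1, with a log2 fold of 0.63 (SE 0.27, unadjusted p = 0.0204, adjusted p = 1 by edgeR). The fold was 0.37 without rank 1 replicate 5, 0.99 without rank 4 replicate 4 and 0.24 without rank 4 replicate 5. Vip cells of the libraries fitted held 17 to 47 Dlx1 UMIs each. In Sst cells Lhx6 had a log2 fold of 0.18 (SE 0.26), Dlx1 of 0.27 (SE 0.27), Maf of 0.12 (SE 0.33) and Nr2f2 of -0.11 (SE 0.33). With at least 10 cells per library, an alternative chosen after seeing the data, Pvalb cells (5 against 3 libraries) and Lamp5 cells (5 against 4) could be fitted too, and 0 of 5 tested members were called in each, where 0% of 4072 and 0% of 2745 genes were called. At an unadjusted p under 0.05 there were 4.49% of genes in Pvalb cells with 1 member, Maf, and 2.51% in Lamp5 cells with 0 members. Maf in Pvalb cells had a log2 fold of 0.76 (SE 0.35, adjusted p = 1 by edgeR), in a fit that included rank 4 replicate 3 with 2 Maf UMIs in 18 cells.

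**Figure D4:**
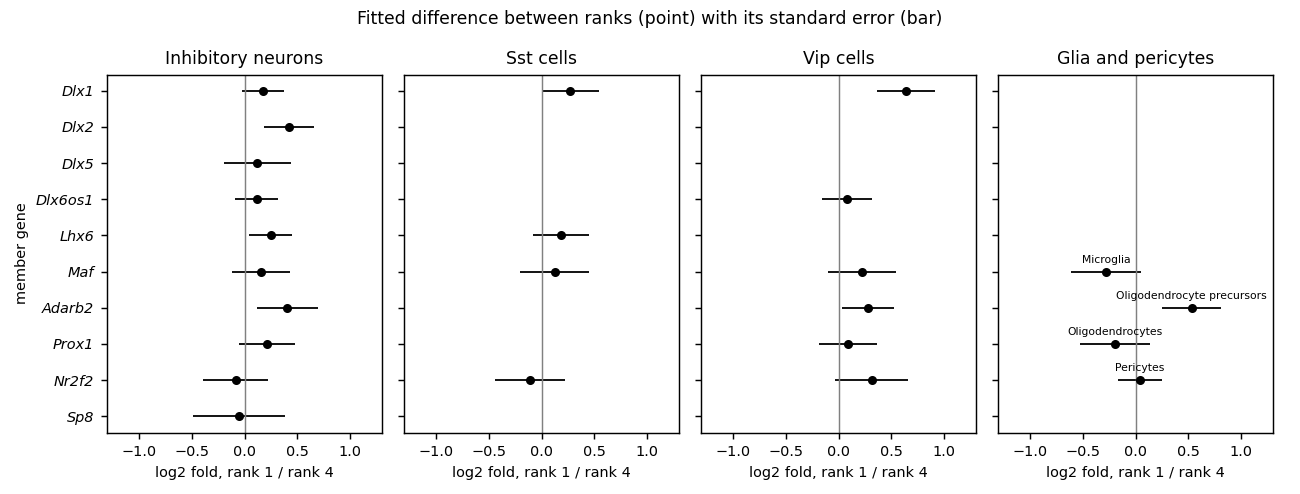
Log2 fold between ranks (x axis; above 0 means higher in rank 1) of each gene (y axis) with its standard error, from edgeR, in all inhibitory neurons, in Sst cells, in Vip cells, and in the glia or pericytes where a member was high; a gene without a point did not pass the filter or is not shown there. The points lie between -0.28 (Maf in microglia) and 0.63 (Dlx1 in Vip cells), and 0 of them passed the threshold.

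Whether rank moved a member differently in the 2 lineages was tested directly, with an exact two-sided permutation test over the 5 rank 1 and 3 rank 4 libraries that held 20 cells of both. The smallest p that these libraries can give is 0.0357, so that a single member passing alone could reach an adjusted p of 0.214 and not the threshold. Of the members 6 had enough counts on both sides. Dlx1 differed most: on the scale of log2(CPM + 10) its change from rank 4 to rank 1 was -0.01 in MGE-type and 0.66 in CGE-type cells, a difference of -0.67 (exact p = 0.107, adjusted p = 0.643). For Dlx2, Dlx5, Dlx6os1, Nr2f2 and Maf the differences lay between -0.48 and -0.01, with adjusted p = 0.964 in the same exact test. That test had no term for software version. Its rank 4 libraries were replicates 1, 4 and 5, while rank 1 entered with all its replicates, so the versions were not balanced between the ranks.

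The make-up of the inhibitory neurons, from which the summed levels come, did not differ detectably with rank. Vip cells were 21.3 ± 4.52% in rank 1 and 21.7 ± 10.0% in rank 4 (SD, n = 5; exact permutation p = 0.921, adjusted p = 0.921). Sst cells were 22.3 ± 2.87% and 23.4 ± 3.45% (exact permutation p = 0.635), Pvalb cells 16.7 ± 1.71% and 17.2 ± 8.29% (exact permutation p = 0.905), and Lamp5 cells 14.2 ± 4.17% and 16.1 ± 6.17% (exact permutation p = 0.595). Sncg cells had the smallest p, 6.63 ± 1.63% against 5.15 ± 1.04% (exact permutation p = 0.135, adjusted p = 0.675), and were higher in rank 1 in 3 of 5 pairs. The smallest p that 5 against 5 libraries can give is 0.00794.

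**Figure D5:**
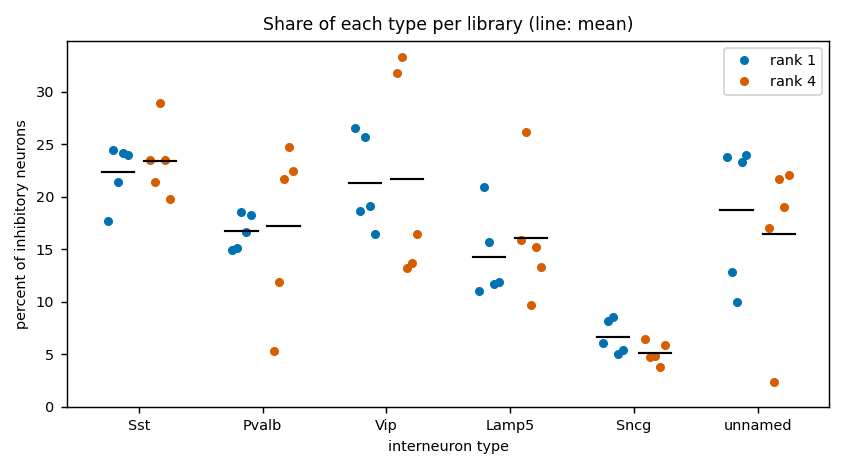
Percent of the inhibitory neurons of each library (y axis) that fell in each type or stayed unnamed (x axis), 1 point per library coloured by rank, with a line at each rank's mean. The rank means lie close together, for example 21.3% and 21.7% for Vip cells, and rank 4 libraries spread more widely for Pvalb and Vip cells.

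Outside the interneuron lineage rank made no called difference to a member in oligodendrocyte precursors, oligodendrocytes, microglia, pericytes or smooth muscle cells, classes where 0% of genes were called. Fibroblasts and perivascular macrophages had too few libraries with 20 cells (0 against 2 and 1 against 1) and were not tested. In them Nr2f2 in fibroblasts had a mean of 416 ± 275 CPM in rank 1 and 164 ± 120 CPM in rank 4, and Maf in perivascular macrophages 488 ± 386 and 728 ± 560 CPM (SD, n = 5), from 1 to 27 cells per library. At an unadjusted p under 0.05 there were 2.14% of genes in oligodendrocyte precursors, 1.21% in oligodendrocytes, 2.53% in microglia, 1.76% in pericytes and 1.41% in smooth muscle cells, with 0 members. Adarb2 in oligodendrocyte precursors had a CPM of 101, 33.7, 40.3, 209 and 162 in the rank 1 libraries, by replicate number, and of 64.6, 44.3, 46.5, 108 and 99.5 in the rank 4 libraries, with overlapping ranges and a log2 fold of 0.53 (SE 0.27, unadjusted p = 0.0710, adjusted p = 1 by edgeR). With the replicate block, where 0.0947% of genes in these precursors were called, its log2 fold was 0.57 (unadjusted p = 0.00192, adjusted p = 0.155 by edgeR), and its adjusted p lay between 0.155 and 1 over all alternatives; 8.65% of genes there had an unadjusted p under 0.05. Maf in excitatory neurons, at a mean of 3.76 CPM, was likewise under 0.05 unadjusted with the block (log2 fold -0.73, adjusted p = 0.370 by edgeR), as were 12.7% of genes there. The block called 0.0359% of genes in microglia, 0% in oligodendrocytes, 0% in pericytes and 0.256% in smooth muscle cells, and no member there. Maf in microglia had a log2 fold of -0.28 (SE 0.33), Prox1 in oligodendrocytes of -0.19 (SE 0.33) Nr2f2 in pericytes of 0.04 (SE 0.21) and Nr2f2 in smooth muscle cells of 0.34 (SE 0.33).

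The rest of the interneuron programme gave the same count. Of 27 other regulators fixed as a list 18 were tested in inhibitory neurons and 0 were called, with a median log2 fold of 0.07; of 18 effector genes 16 were tested and 0 were called, with a median of 0.12. Among the smallest unadjusted p of these lists, by edgeR, were those of Zeb2, a zinc finger factor (log2 fold 0.45), and Lamp5 (-0.36). Both had an adjusted p of 1 in the edgeR fit. Among the highest of the other regulators Satb1, which acts in the medial lineage, had a mean of 637 CPM in Sst, 303 in Pvalb, 43.0 in Vip and 11.0 in Lamp5 cells. Id2 had a mean of 664 CPM in Lamp5 cells, the highest of the types, and Npas1 was at 185 CPM in Sst and 193 CPM in Vip cells and at 0 in all Pvalb libraries. With the replicate block 3 calls fell on genes of the lists. Outside the interneurons Npy, a neuropeptide, was called in astrocytes, with a log2 fold of -1.12 (adjusted p = 0.0141 by edgeR), and Bcl11b, a zinc finger factor, in excitatory neurons, with 0.51 (adjusted p = 0.0274), where 0.308% and 0.291% of genes were called. Without the block neither was called: Bcl11b in excitatory neurons had a log2 fold of 0.51 (SE 0.15, unadjusted p = 0.00593 by edgeR). Npy in astrocytes then had a log2 fold of -1.07 (SE 0.60, adjusted p = 1 by edgeR), from 6 to 803 UMIs per library. The unblocked Npy fold was also below 0 in the other 5 classes outside the interneurons where it was tested, between -0.79 in endothelial cells and -0.33 in oligodendrocytes, with 0 called, and was 0.16 in all inhibitory neurons. The third was Npy in Sst cells, with a log2 fold of -2.27 (adjusted p = 4.5e-06 by edgeR), where the edgeR fit without the block gave -0.42 (adjusted p = 1). Its CPM ranged from 183 to 9677 over the 10 libraries, which held 9 to 138 Sst cells. The blocked fit held both libraries of a number for replicates 1, 4 and 5, so that fold rests on 3 pairs, with 300.1 against 4857, 993 against 5217 and 4224 against 7134 CPM in rank 1 against rank 4. Replicates 2 and 3 went the other way, with 9677 against 183 and 6375 against 2054 CPM, and each had 1 library below 20 cells.

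In inhibitory neurons 5 of the 10 members differed between the 2 sets of libraries. From the same edgeR fit in inhibitory neurons, read after the levels by library had been seen, replicates 4 and 5 were compared with replicates 1 to 3, 4 against 6 libraries. This contrast called 37.4% of 8951 genes, and 5 of 10 members, so the members' count of calls lay near that background. Lhx6 was higher in replicates 4 and 5, by 1.17 on the log2 scale (SE 0.20, adjusted p = 0.000400), with 41.5 to 80.3 CPM in replicates 1 to 3 and 108 to 166 CPM in replicates 4 and 5, without overlap. The other 4 were lower there: Dlx2 with a log2 fold of -2.10 (SE 0.24, adjusted p = 2.3e-05), Dlx5 of -1.60 (SE 0.33, adjusted p = 0.00141), Sp8 of -2.08 (SE 0.45, adjusted p = 0.00207) and Nr2f2 of -1.02 (SE 0.31, adjusted p = 0.0159). Dlx1, the neighbour of Dlx2, had a log2 fold of -0.18 (SE 0.20, adjusted p = 0.491).

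Within types, which were not tested for this contrast, some ranges of the 2 sets were separate and others overlapped. Lhx6 in Sst cells was between 84.2 and 149 CPM in replicates 1 to 3 and between 185 and 324 CPM in replicates 4 and 5, and in Pvalb cells it was between 75.8 and 150 and between 166 and 241 CPM. Dlx2 in Vip cells was between 104 and 237 CPM in the first set and between 22.4 and 37.5 in the second, and Dlx6os1 there, which was not called in inhibitory neurons (adjusted p = 0.0709 by edgeR), was between 168 and 342 and between 568 and 874 CPM. Dlx2 in Sst cells overlapped (15.8 to 163 against 7.29 to 38.4 CPM), as did Dlx5 in Sst (31.6 to 131 against 21.9 to 44.7 CPM) and in Vip cells (46.2 to 371 against 36.8 to 72.8 CPM). Nr2f2 in Sst cells lay between 28.5 and 209 CPM in the first set and within that range, between 72.9 and 158 CPM, in the second. Outside the interneurons, Prox1 in oligodendrocytes was higher in replicates 4 and 5 by 1.57 (SE 0.33, adjusted p = 0.00254) and Adarb2 in their precursors by 1.18 (SE 0.27, adjusted p = 0.00355), in classes where 35.8% and 39.6% of genes were called. Barcode sequences were shared mostly within a set: 255 of the shared ones fell in the 21 pairs of libraries of 1 software version and 13 in the 24 pairs of different versions (at most 0.0821% of the smaller library). Software version, gene list and the replicates themselves changed together between the 2 sets and cannot be told apart. The make-up of the inhibitory neurons in the 2 sets was not tested, and its ranges overlapped: Sst cells were 22.9 ± 3.75% and 22.9 ± 2.08%, Vip cells were 24.9 ± 7.70% in replicates 1 to 3 (SD, n = 6) and 16.4 ± 2.25% in replicates 4 and 5 (SD, n = 4), and Pvalb cells 14.6 ± 5.66% and 20.6 ± 3.73%. Both sets held both ranks, and the medial against caudal order of Lhx6 and Adarb2 was present in every library.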

How the data were processed

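Per the file headers the deposited matrices held raw UMI counts per gene and barcode, written by software versions 3.1.0 and 4.0.0, and Cell Ranger 4.0.0 and build mm10 are named in the submitters' processing notes. Genes in both gene lists (31053 and 32285) were used. Cells had at least 500 genes and at most 15% mitochondrial UMIs, and Scrublet (scanpy 1.11.5) called 3095 doublets; its own threshold failed in 2 libraries, which took 0.247, the median of the rest. Leiden clustering (leidenalg 0.10.2, resolution 1, 30 components) left the members and 27 related regulators out of the 2000 variable genes. Clusters were named from marker lists; a rule that leaves a small cluster unnamed when it has no own marker among its 10 leading genes was added after seeing the data. Counts summed per library were tested with edgeR 4.0.16, and DESeq2 1.42.0 was an alternative. Genes named outside the members were called genes of 2 lists, the 3 smallest p, the highest regulators and the 2 genes most like each member; 1 gene that this rule names is not reported here. Members and lists were chosen with earlier results of these data known. Same-numbered libraries deviated together in inhibitory neurons with r of 0.48 to 0.73 in 5 pairs, values that include the difference between software versions. Within a version r was 0.58, 0.22 and 0.19 for replicates 1 to 3. For replicates 4 and 5 it was 0.087, equal by construction. Rank 1 replicates 2 and 5 correlated better with a rank 4 library of another number. The numbers were taken to pair the libraries in the blocked fits, which these values do not establish. Nothing in the labels says whether a pair shared a cage or a day. Alternatives were a replicate block, other tools, filters and resolutions, and leaving out each library. The test was checked on simulated counts.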

Additional observations from a re-analysis of the deposited data

Results flagged for a closer look

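In 80 groups of 5 libraries (each member in inhibitory neurons and in each type where it had at least 50 UMIs, and each type share) 2 held a library that stood apart from the other 4 by Dixon's criterion at the 95% level. Chance gives about 1 in 20 such groups, or 4 of 80. Dlx5 in Sst cells was at 122 CPM in rank 1 replicate 3, against 56.9 CPM in the nearest rank 1 library, from 9 UMIs in 15 cells. Maf in Pvalb cells was at 27.0 CPM in rank 4 replicate 3, against 120 CPM in the nearest rank 4 library, from 2 UMIs in 18 cells. Both held fewer than 20 such cells and entered no test of that type alone that needed 20, but the UMIs of both entered the MGE-type sums, where each library held at least 20 cells of Sst and Pvalb type together. Of the fits with at least 10 cells per library, rank 4 replicate 3 entered that of Pvalb cells, where Maf had a log2 fold of 0.76 (unadjusted p = 0.0442, adjusted p = 1 by edgeR), and rank 1 replicate 3 entered that of Sst cells.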

How the results depend on the processing

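The count of called members was 0 in inhibitory neurons, in interneuron types and in other cell classes under each alternative run. Over all genes the calls were 0 in inhibitory neurons, 7 in types and 0 in other classes; they were 10, 29 and 105 with the replicate block, 8 in inhibitory neurons and 34 in other classes without a filter on low counts, and 0 in types and 1 in other classes with DESeq2. In types they were 0 without the version covariate, within replicates 1 to 3, with at least 40 and with at least 10 cells per library, and 2 within replicates 4 and 5 and also under stricter limits on cells; in other classes they were 1 within replicates 4 and 5 and 2 with the stricter filter. Leaving out a library gave 0 to 6 calls in types and 0 to 2 in other classes.

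Differences between ranks that were not called often changed sign. With the replicate block the log2 folds were 0.00296 for Prox1 in oligodendrocytes, -0.0148 for Nr2f2 in pericytes and 0.19 for Nr2f2 in Sst cells, and the block changed no member's call. Within replicates 1 to 3 they were -0.12 for Dlx1 and 0.21 for Sp8 in inhibitory neurons, -0.0388 for Nr2f2 in pericytes, and -0.37 for Lhx6, -0.14 for Dlx1 and -0.0532 for Maf in Sst cells. Within replicates 4 and 5 they were -0.21 for Dlx5 and 0.60 for Nr2f2 in inhibitory neurons, 0.33 for Prox1 in oligodendrocytes and 0.52 for Nr2f2 in Sst cells. Other reversals were Sp8 in inhibitory neurons without the covariate (0.21), Nr2f2 in pericytes without the filter (-0.00992), Nr2f2 in Sst cells under stricter limits on cells (0.31), and, at a minimum of 10 cells, Maf in Sst (-0.00400) and Nr2f2 in Vip cells (-0.23). Leaving out 1 library gave, in inhibitory neurons, -0.11 to 0.35 for Dlx5, -0.0334 to 0.22 for Dlx6os1, -0.0289 to 0.51 for Maf, -0.31 to 0.13 for Nr2f2, -0.0670 to 0.46 for Prox1 and -0.42 to 0.36 for Sp8. In Sst cells it gave -0.0393 to 0.27 for Lhx6, -0.0692 to 0.61 for Maf and -0.40 to 0.12 for Nr2f2, in Vip cells -0.10 to 0.21 for Dlx6os1, -0.17 to 0.65 for Maf and -0.33 to 0.55 for Prox1, and -0.0334 to 0.15 for Nr2f2 in pericytes and -0.43 to 0.0362 for Prox1 in oligodendrocytes.

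Differences in type shares (rank 1 minus rank 4, percentage points) also changed sign: Sst 0.623 and Vip 0.574 at resolution 0.5, Pvalb 0.0396 and Vip 0.294 at resolution 2, Vip 3.16, Lamp5 0.143 and Sncg -0.432 with the stricter filter, Pvalb 3.24 within replicates 1 to 3, and Sst 2.46 and Vip 2.76 within replicates 4 and 5. Without 1 library they ran from -2.0 to 0.286 for Sst, -3.50 to 1.37 for Pvalb, -2.51 to 2.51 for Vip and -3.49 to 0.717 for Lamp5. The lineage difference became 0.0838 for Dlx6os1 with a pseudocount of 50 CPM and 0.15 for Dlx5 with pairs kept together (replicate block), and without 1 library it ran from -0.42 to 0.18 for Dlx2, -0.23 to 0.16 for Dlx6os1 and -0.42 to 0.0377 for Maf.

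Levels moved by over 1 SD in 5 cases: Dlx6os1 in Pvalb cells was 151 CPM with the stricter filter, and at resolution 0.5 Adarb2 (23.9), Prox1 (12.7) and Sp8 (0.179) in Pvalb and Prox1 in Sst cells (2.88) were higher. At resolution 0.5 a cluster of 66 cells named Pvalb had Vip and Adarb2 among its leading genes. The cause of these shifts was not tested. Cells with a UMI rose with depth, to 22.8% for Lhx6 and 32.3% for Adarb2 without thinning and 17.4% and 25.8% at 2000 UMIs. Few cells per type and library limit the tests in Pvalb, Lamp5 and Sncg cells.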
